A study of Mus musculus with 2 samples.

Results

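The 9 genes described here mark the resident large macrophages of the mouse peritoneal cavity: Gata6, Rarb, Rxra, Garnl3, Icam2, Aspa, Prg4, Lrg1 and Wnt2. They were taken by symbol from the 28692 genes in the files, and all 9 were found. Cells of the peritoneal cavity were profiled with droplet 3′ v2 single-cell RNA sequencing, which counts transcripts as unique molecular identifiers (UMIs). The WT library came from germ-free C57BL/6 mice without the deletion. The Xbp1dIEC library came from germ-free C57BL/6 mice that lack Xbp1, which encodes a regulator of protein folding stress, in intestinal epithelial cells, so the deletion lies outside the cells measured. Each library pooled equal cell numbers from 4 males aged 10 weeks, with 8700 cells loaded, so animals within a pool cannot be told apart and the absence of microbes is common to both. Since each genotype has 1 library, differences could not be checked over replicates and nothing was tested. Ranges in brackets are 95% intervals for counting error alone.

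Large peritoneal macrophages renew themselves locally and carry a tissue programme set by the zinc finger transcription factor Gata6. Retinoic acid, made from vitamin A by cells of the omentum and the peritoneal lining, induces Gata6 in them through receptors of the RAR and RXR families. RARs bind DNA as partners of RXRs, and Rarb is itself a classical retinoic acid target. Among the other genes, Icam2 encodes an adhesion molecule used as a surface marker of these cells, Prg4 lubricin, Lrg1 a secreted leucine-rich glycoprotein, Wnt2 a secreted Wnt ligand, Aspa the enzyme that cleaves N-acetylaspartate, and Garnl3 a protein with a GTPase-activating domain. The smaller population of peritoneal macrophages, more closely tied to blood monocytes, expresses Folr2 and Retnla and little Gata6.

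Stretches before the start sites of Rarb and Wnt2 are shown because the first holds a retinoid receptor element and the second a GATA word, in a set of genes named after both factors. They are from RefSeq on GRCm38.p6, on the minus strand, Rarb at chr14:16575507-16575536 and Wnt2 at chr6:18030586-18030695. Capitals mark a direct repeat of 2 receptor words with 5 bases between them in Rarb and the GATA word in Wnt2.
Rarb: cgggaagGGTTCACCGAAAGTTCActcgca
Wnt2: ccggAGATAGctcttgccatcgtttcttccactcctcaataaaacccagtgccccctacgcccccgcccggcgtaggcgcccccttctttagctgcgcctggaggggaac
The receptor words searched were AGGTCA with its variant AGTTCA and also GGGTCA with its variant GGTTCA. The GATA words were AGATAA with its variant AGATAG and also TGATAA with its variant TGATAG. Each was searched on both strands. The search window was 250 bases before to 50 bases after each start site. The direct repeat of Rarb lay at bases -53 to -37 from the start site, and such a repeat was present in 32 of 32851 windows of the same length (0.0974%). The GATA words of Wnt2 lay at -246 to -241, as shown, and at -9 to -4, outside the bases shown, and 29.8% of all windows held at least 1 such word. A single receptor word, on either strand and also where it is part of a repeat, was present in 43.7% of windows. In GENCODE a 5′ untranslated region of Rarb covers the repeat, and Wnt2 begins at 18030585, so the Wnt2 bases shown, -250 to -141 from the RefSeq start site, end where that gene model begins. The RefSeq table held 6 of the 9 genes, Rxra and Garnl3 with 2 windows each: no GATA word was found in the windows of Rxra, Garnl3, Aspa, Rarb and Lrg1, and Rarb was the only one with the direct repeat. Gata6, Icam2 and Prg4 were not in the table. A match describes the letters and not binding.

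WT had 6204 barcodes with 56229330 UMIs in total, and Xbp1dIEC had 6246 with 49703442, with medians of 8323.5 and 7279.5 UMIs per barcode. Of these, 6056 and 6112 cells were kept, and 58 barcode sequences occurred in both libraries. Large macrophages had 3 or more UMIs of Adgre1, Csf1r and Cd68 together and 2 or fewer of Folr2 and Retnla together. The rule gave 2360 WT and 2460 Xbp1dIEC cells, of which 2125 and 2296 met no Cd209a or lymphocyte gate and were used. Folr2/Retnla macrophages passed the same macrophage gate with 3 or more Folr2 and Retnla UMIs (913 and 721 cells). Cd209a cells had 3 or more Cd209a UMIs (38 and 42 cells), and lymphocytes had 3 or more UMIs of B or T cell genes (2335 and 2329 cells). Among large macrophages, cycling cells had 3 or more of 2000 UMIs from a list of 24 cell cycle genes (107 and 53 cells), and resting cells had none (1820 and 2102 cells). In large macrophages all 9 listed macrophage markers were found, and Timd4, a receptor of resident macrophages, was at 252 and 259 CPM, UMIs per 1000000 UMIs of the class. All 9 were found in lymphocytes too, but they summed to 63370 and 67670 CPM in large macrophages against 1787 and 1396 CPM. All listed markers of Cd209a, B and T cells also had UMIs in large macrophages. They summed to 1071 and 731 CPM for Cd209a cells, 95.1 and 85.8 CPM for B cells and 10.2 and 9.81 CPM for T cells. The 11 mesothelial and stromal markers summed to 0.251 and 0.228 CPM there, with Msln, Wt1, Lrrn4, Krt18, Col1a1 and Dcn at 0 in both libraries. Xbp1 was at 112 and 119 CPM in large macrophages, which does not check a deletion made in the gut epithelium.

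The plot of the 9 genes by class shows all of them in large macrophages and far lower levels in lymphocytes, where Icam2 was the highest relative to large macrophages. The Gata6 level was 87.2 CPM in WT (83.1 to 91.4) against 92.3 CPM in Xbp1dIEC (87.9 to 96.9). The retinoid receptors were at 16.5 and 14.1 CPM for Rarb and 24.5 and 24.9 CPM for Rxra. Among the genes of the surface and the secreted products, Icam2 was at 625 and 579 CPM, Prg4 at 2167 and 2380 CPM, Lrg1 at 400.2 and 412 CPM and Wnt2 at 180.4 and 167 CPM. Aspa was at 40.6 and 44.2 CPM, and Garnl3 at 264 and 259 CPM. For every gene the level in one library lay within 1.5-fold of the other.

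**Figure D1:**
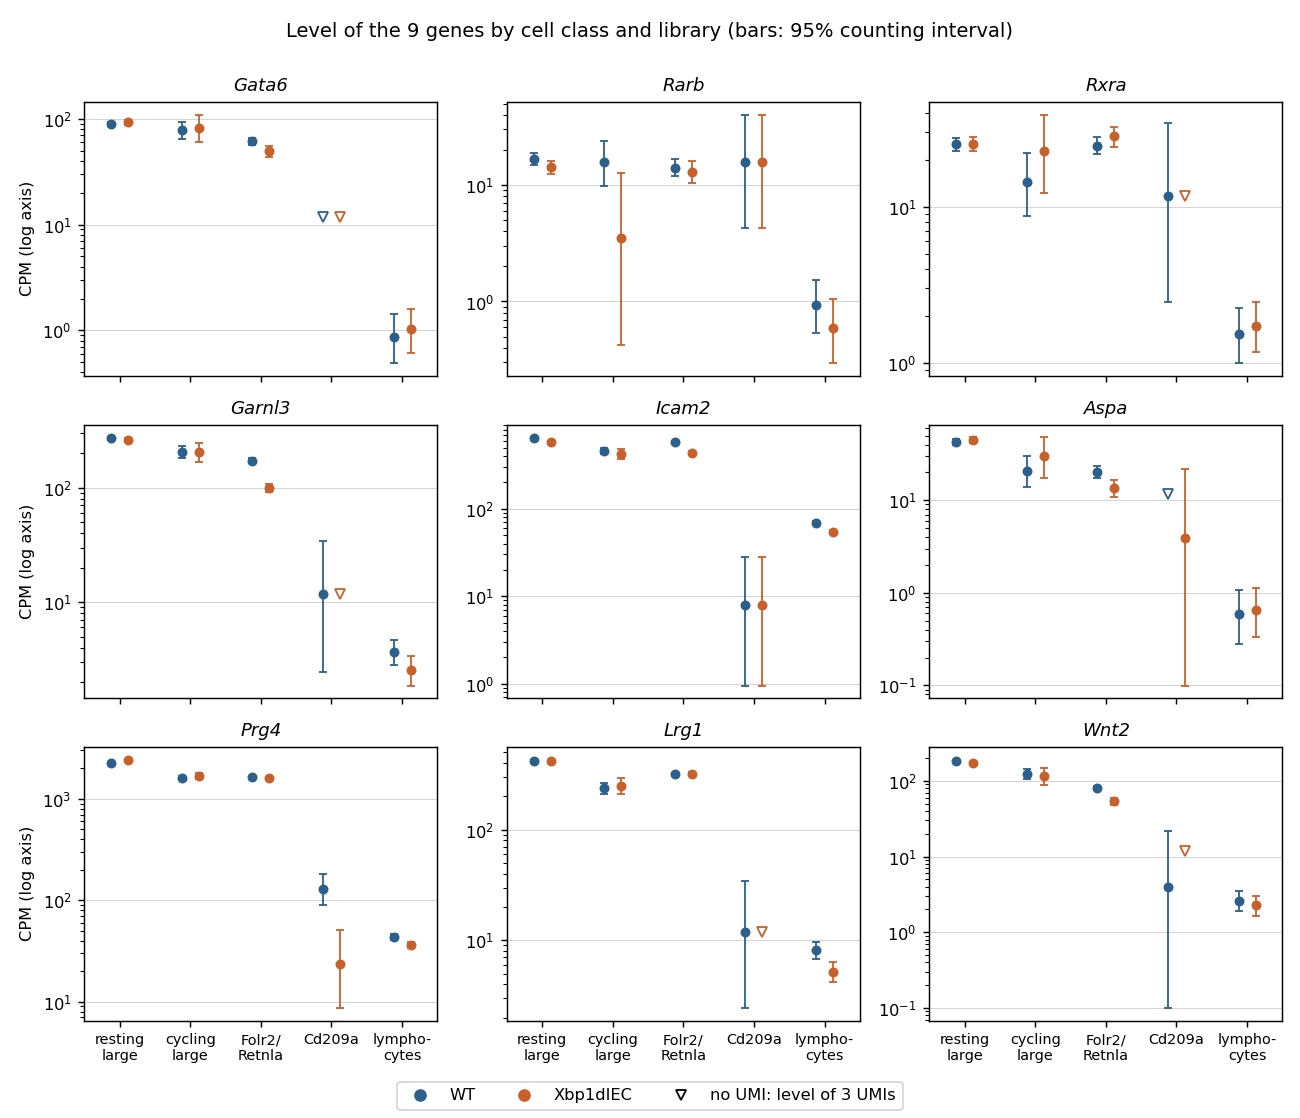
Level of each of the 9 genes in CPM (log axis) in 5 cell classes, for WT (blue) and Xbp1dIEC (orange); bars are exact 95% Poisson intervals, and open triangles stand at the level of 3 UMIs where no UMI was counted. Gata6 sits near 90 CPM in resting large macrophages, between 49.3 and 61.4 CPM in Folr2/Retnla macrophages and near 1 CPM in lymphocytes, while Rarb and Rxra are about as high in Folr2/Retnla as in large macrophages.

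Against lymphocytes, all 9 genes were 4-fold or more higher in large macrophages in WT, where 7.8% of the 12504 genes tested were, and all 9 in Xbp1dIEC, against 7.62% of 12407 genes. Since the genes are known as macrophage genes this check describes the gates. The median log2 ratio of the 9 genes was 5.46 in WT and 5.53 in Xbp1dIEC, against -0.05 and -0.09 over all genes tested. How low the lymphocyte level was differed between the genes. Gata6, with 15 UMIs in 2335 WT lymphocytes and 19 in 2329 Xbp1dIEC lymphocytes, was at 1.0% of its large macrophage level in WT (0.561 to 1.66) and at 1.11% in Xbp1dIEC. Timd4, which lymphocytes should lack, was at 1.71% and 1.04%, and Garnl3, Aspa, Prg4, Lrg1 and Wnt2 lay between 0.974% and 2.03%. C1qb and Saa3, macrophage genes of high level, were at 2.94% and 4.09% in WT and 2.25% and 2.88% in Xbp1dIEC. These shares are used below as a reference for lymphocyte values. They differ between genes, and their source was not tested. Icam2, which lymphocytes also express, was at 68.5 and 54.3 CPM in them, 10.3% to 11.6% of the large macrophage level in WT and 9.38% (8.79 to 10.0) in Xbp1dIEC. Rxra was at 6.2% (4.01 to 9.2) and 6.91% (4.67 to 9.9), and Rarb at 5.65% (3.19 to 9.32) and 4.2% (2.07 to 7.65). The lymphocyte gate also took in 94 WT and 152 Xbp1dIEC cells of cluster 12, led by Cd209a, Mgl2 and Flt3, and a few of clusters 13 and 15. Without these clusters, a setting chosen after seeing the data, 2234 and 2163 lymphocytes remained and all 9 genes again passed the fold. Icam2 was then at 11.2% (10.6 to 11.9) and 9.69% (9.05 to 10.4) of its large macrophage level, above the reference shares, with Saa3 at 3.94% and 2.78%. Rxra was at 5.41% (3.32 to 8.37) and 4.59% (2.74 to 7.25), and Rarb at 3.05% (1.31 to 6.09) and 2.14% (0.687 to 5.05). The intervals of both receptors reach into the reference shares, but that of Rxra in Xbp1dIEC only touches them, at 2.74% against 2.78%. Of WT lymphocytes thinned to 2000 UMIs, 13.2% had an Icam2 UMI, against 0.3% with a Gata6 UMI; median depths before thinning were 5721 UMIs in lymphocytes and 9111 in large macrophages.

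In Cd209a cells, which were few, Gata6 had no UMI in either library. The value of 3 UMIs there is 11.8 CPM, and the exact interval reaches 14.5 CPM. Rarb had 4 UMIs in each library, or 15.7 CPM with intervals of 4.28 to 40.2 in both, which span its large macrophage level. Of the 161 WT and 140 Xbp1dIEC cells with 3 or more Cd209a UMIs, those that also met another gate are not in this class. Cluster 12 (315 and 360 cells), which holds 124 and 104 of them, had Rarb at 6.3 CPM (4.08 to 9.3) and 4.58 CPM (2.8 to 7.07), below its large macrophage levels, and Gata6 at 2.52 and 2.75 CPM. In the gated Cd209a class itself, Rxra had 3 and 0 UMIs and Icam2 had 2 in each library. Aspa, Garnl3, Lrg1 and Wnt2 had 0 to 3 in that class. Prg4 had 33 UMIs there in WT, or 129.6 CPM (89.2 to 182), but 6 in Xbp1dIEC, or 23.5 CPM (8.64 to 51.2). Macrophage markers moved with it: the 9 listed summed to 6218 and 2389 CPM, with Lyz2 at 5322 and 2201 CPM and C1qb at 326 and 94.1 CPM. Their part in the Prg4 difference was not tested. A further 49 and 39 cells met the Cd209a and the macrophage gate together and were left out. Gata6 was at 23.8 and 27.7 CPM in them.

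After thinning to 2000 UMIs, a resting large macrophage had UMIs of 3.01 of the 9 genes on average in WT and 2.94 in Xbp1dIEC. Cycling cells had 2.55 and 2.4, Folr2/Retnla macrophages 2.35 and 2.12, lymphocytes 0.254 and 0.207, and Cd209a cells 0.184 and 0.0952. Of resting large macrophages, 1.98% and 1.33% had none of the 9. Prg4 was present in 95.3% and 96.5% of thinned resting cells, Icam2 in 65.0% and 59.9%, Gata6 in 16.0% and 17.1%, and Rarb in 3.19% and 2.71%. Without thinning, Gata6 was found in 50.4% and 46.0% of them.

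The genes differed in how evenly their transcripts were spread over resting large macrophages. From the total of a gene and the depth of each cell, the share of cells with a UMI was computed for the case that every cell had the same level. Gata6 came close to that case, with 50.4% of WT cells against 53.6%, and 46.0% of Xbp1dIEC cells against 48.9%. Rarb (9.71% against 10.1% in Xbp1dIEC) and Rxra (20.4% against 20.2% in WT) had so few UMIs per cell, 0.107 to 0.23, that closeness says little about their spread. Wnt2 stood at the other end: 38.0% of WT cells had a UMI against 77.6%, and 35.1% of Xbp1dIEC cells against 69.4%. Cells with Wnt2 held 4.41 and 3.65 UMIs of it on average, and up to 19 and 21. Lrg1 (76.6% against 94.8% in WT) and Garnl3 (76.0% against 87.5%) lay between, as did Timd4 (64.2% against 87.3%).

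**Figure D2:**
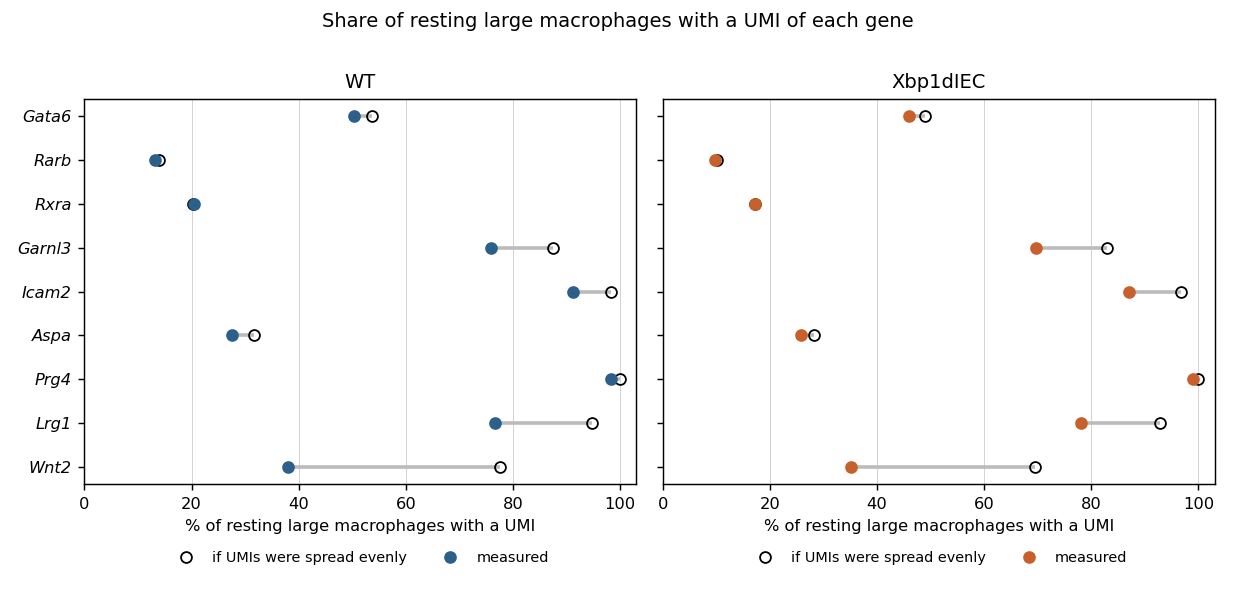
Share of resting large macrophages with at least 1 UMI of each gene, in WT (left) and Xbp1dIEC (right); filled points are the measured shares and open points the shares if each gene had the same level in every cell. Wnt2 has the widest gap, 38.0% against 77.6% in WT, and Gata6 has a gap of a few percentage points. Rarb and Rxra have too few UMIs per cell for a gap to show.

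Splitting resting large macrophages by the presence of a Wnt2 UMI after thinning gave 417 WT and 463 Xbp1dIEC cells with Wnt2, of much the same depth as the 1403 and 1639 without. Aspa was higher in the cells with Wnt2, at 58.1 against 38.5 CPM in WT (log2 ratio 0.58, 0.35 to 0.81) and 55.3 against 41.8 CPM in Xbp1dIEC (0.40, 0.15 to 0.63). Outside the 9 genes, and chosen with earlier results known, Timd4 had log2 ratios of 0.56 and 0.62 and Apoc1, an apolipoprotein, 0.98 and 0.97, while Slpi, a protease inhibitor, had -0.83 and -0.88. Gata6 differed little, at 88.6 against 89.5 CPM in WT (-0.01, -0.19 to 0.16) and 103.8 against 89.8 CPM in Xbp1dIEC (0.21, 0.03 to 0.38). Garnl3 and Lrg1 had opposite signs in the libraries, 0.19 and -0.14 for Garnl3 and 0.24 and -0.09 for Lrg1.

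Clusters of all cells are given as a description, since all genes were open to the clustering. Of 16 clusters, 6 took most of their gated cells from large macrophages. Leaving out cluster 10, led by cell cycle genes, Gata6 ranged from 85.8 to 101 CPM over 5 clusters in WT and from 91.7 to 109 CPM in Xbp1dIEC, a highest level 1.18 and 1.19 times the lowest. The same ratio was 2.48 and 2.67 for Wnt2, 2.73 and 2.3 for Lrg1 and 2.31 and 2.27 for Icam2. Wnt2 was highest in cluster 6, led by genes such as Asz1, Apoc1, Vsig4 and Timd4, at 298 and 315 CPM. Aspa and Rarb were also highest there, but with intervals that overlapped those of cluster 7 in both libraries. Rarb was at 18.5 CPM (14.8 to 22.9) and 24.5 CPM (17.1 to 33.9) in cluster 6, against 17.5 CPM (13.2 to 22.9) and 17.7 CPM (14.4 to 21.6) in cluster 7. Aspa was at 54.7 CPM (48.2 to 61.8) and 48.2 CPM (37.7 to 60.8), against 44.8 CPM (37.7 to 53.0) and 45.3 CPM (39.9 to 51.3). Icam2 was lowest in cluster 2, at 338 and 319 CPM, whose median depth was 4597 and 3836.5 UMIs. Depth moved with it and its part was not tested.

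Folr2/Retnla macrophages carried less of several of the genes, while no difference was resolved for the receptors. In WT, 3 of the 9 genes were 1.5-fold or more higher in large than in Folr2/Retnla macrophages, where 2.46% of 11811 genes were. They were Wnt2 at 180.4 against 80.3 CPM (log2 ratio 1.16, 1.05 to 1.27), Aspa at 40.6 against 20.3 CPM (0.97, 0.76 to 1.19) and Garnl3 at 264 against 172 CPM (0.62, 0.54 to 0.69). In Xbp1dIEC, 4 of the 9 were, against 4.13% of 11489 genes. Aspa (1.64), Wnt2 (1.63) and Garnl3 (1.38) were joined by Gata6, at 92.3 against 49.3 CPM (0.89, 0.72 to 1.07). Gata6 was at 87.2 against 61.4 CPM in WT (0.50, 0.37 to 0.63). Rxra was at 24.5 against 24.7 CPM in WT (-0.02, -0.23 to 0.20) and 24.9 against 28.3 CPM in Xbp1dIEC (-0.18, -0.42 to 0.07). Rarb had log2 ratios of 0.21 (-0.06 to 0.49) and 0.10 (-0.24 to 0.45), so for both receptors the interval of the difference included 0. The median of the 9 was 0.40 and 0.57, against -0.04 and -0.06 over all genes tested. Of 19 other measured genes known from large macrophages, 5 in WT and 9 in Xbp1dIEC were also 1.5-fold or more higher there. In each library 1 of the 19 was lower by that fold.

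The Folr2/Retnla gate held a mixture. Only 32.5% of its WT cells and 52.1% of its Xbp1dIEC cells lay in the 2 clusters in which that class was the most frequent. Retnla was also counted in lymphocytes, at 89.5 and 81.3 CPM outside clusters 12, 13 and 15, and the gated WT cells were deep, with a median of 11122 UMIs against 9111 in large macrophages. All macrophages were therefore placed by their Folr2 and Retnla UMIs after thinning to 2000 UMIs. In the plot along Folr2 and Retnla content the genes differed in how far they fell. Garnl3, Aspa, Wnt2 and Gata6 were far lower at 20 or more UMIs than at 0. Garnl3 was at 16.4% (12.8 to 20.6) of its level at 0 UMIs in WT and 10.7% (7.83 to 14.2) in Xbp1dIEC, Aspa at 12.5% and 17.8%, and Wnt2 at 20.2% and 19.8%. Gata6 was at 35.6% (26.4 to 47.0) and 21.1% (14.5 to 29.6). Prg4 was at 40.8% and 43.9%, Icam2 at 66.1% and 56.4%, and Lrg1 at 73.7% and 69.8%, a smaller difference. In WT the Gata6 interval included the Prg4 value, so Gata6 and Prg4 were not set apart there. Rarb was at 91.6% (58.7 to 136) and 87.9% (55.1 to 133), and Rxra at 112% (82.0 to 149) and 125% (93.8 to 164). For the receptors the intervals at 20 or more include the level at 0 UMIs. At 10 to 19 UMIs, Rarb in Xbp1dIEC was at 35.6% (9.71 to 91.2), from 4 UMIs, an interval below that level. These intervals leave out the counting error of the level at 0 UMIs. The number of cells at 20 or more was 165 and 214.

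**Figure D3:**
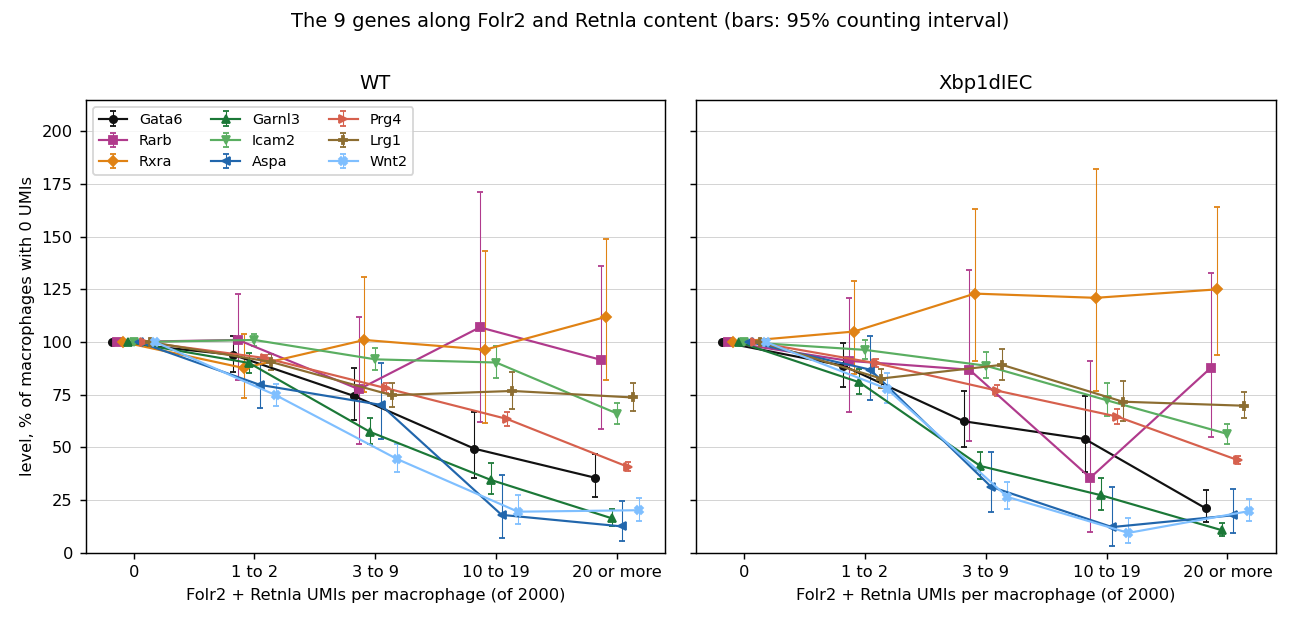
Level of each gene in macrophages grouped by their Folr2 and Retnla UMIs of 2000, as a percentage of the level in macrophages with 0 such UMIs, in WT (left) and Xbp1dIEC (right); bars are 95% counting intervals. At 20 or more UMIs Garnl3, Aspa and Wnt2 stand between 10.7% and 20.2%, Gata6 at 35.6% and 21.1%, and Rarb and Rxra between 87.9% and 125%.

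The receptors were also found in both Folr2/Retnla clusters. In cluster 3, led by Cd209f, Folr2, Retnla and Cbr2 (322 and 473 cells), Gata6 was at 38.0 and 33.3 CPM, Rarb at 14.4 and 10.7 CPM and Rxra at 26.2 and 34.1 CPM. Prg4 was at 1303 and 1443 CPM and Lrg1 at 325 and 376 CPM. In cluster 11, led by Ear2, Fcrls and Ccr2, a receptor of blood-derived monocytes (141 and 159 cells), Gata6 had only 6 and 2 UMIs, or 4.98 CPM (1.83 to 10.8) and 1.99 CPM (0.241 to 7.18). The lymphocyte level of Gata6, 0.875 and 1.02 CPM, lay below the first of these intervals and inside the second. Rarb in cluster 11 was at 10.8 CPM (5.75 to 18.5) and 14.9 CPM (8.34 to 24.6), and Rxra at 19.1 CPM (12.1 to 28.7) and 18.9 CPM (11.4 to 29.5). Those intervals span the levels of large macrophages. Aspa had 1 and 0 UMIs there, and Wnt2 7 and 3. Lrg1 was at 79.7 and 58.6 CPM and Prg4 at 94.7 and 63.6 CPM, each above its lymphocyte level, which was 8.11 and 5.16 CPM for Lrg1 and 43.6 and 36.3 CPM for Prg4.

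Cycling large macrophages had lower CPM of all 9 genes than resting ones in both libraries, with Gata6 among the least different. In WT, 4 of the 9 genes differed by 1.5-fold or more, all lower, where 31.3% of 11261 genes did in either direction. In Xbp1dIEC, 2 of the 9 did, against 42.3% of 11109 genes. So many genes pass this fold between groups of this size that the counts of members alone say little. Among genes at 10 CPM or more in resting cells, 8.89% in WT and 11.6% in Xbp1dIEC were lower by 1.5-fold. The median of the 9 was -0.50 and -0.52, against 0.04 and 0.09 over all genes tested. Lrg1 passed in both libraries, at 236 against 415 CPM in WT (log2 ratio -0.81, -0.97 to -0.65) and 248 against 421 CPM in Xbp1dIEC (-0.76, -1.01 to -0.52). Aspa was at 20.8 against 43.0 CPM in WT (-1.01, -1.57 to -0.50) and 29.9 against 44.8 CPM in Xbp1dIEC (-0.57, -1.32 to 0.10). Wnt2 had log2 ratios of -0.59 and -0.56, Prg4 -0.47 and -0.52, Icam2 -0.50 and -0.47 and Garnl3 -0.39 and -0.37. These 4 were much alike in both libraries, with intervals below 0. Gata6 was at 78.1 against 89.3 CPM in WT (-0.19, -0.48 to 0.09) and 82.6 against 92.8 CPM in Xbp1dIEC (-0.17, -0.61 to 0.25). Rarb in cycling Xbp1dIEC cells rested on 2 UMIs (3.52 CPM, 0.426 to 12.7), and its WT ratio was -0.08. Rxra had -0.78 in WT, from 20 UMIs, and -0.14 in Xbp1dIEC, from 13.

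**Figure D4:**
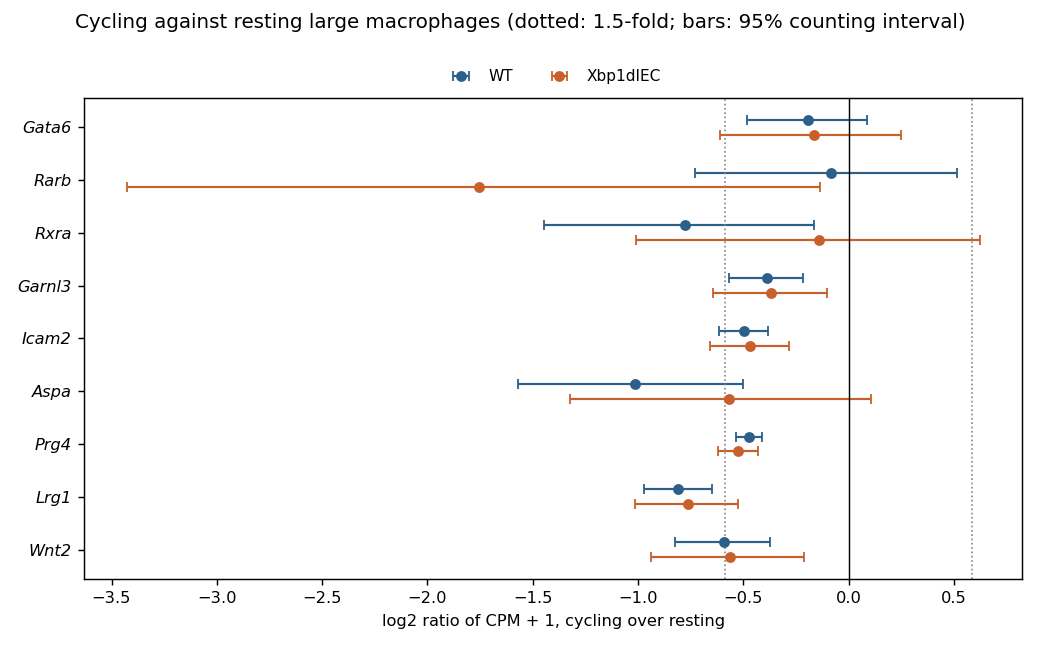
Log2 ratio of CPM with 1 CPM added, cycling over resting large macrophages, for each gene in WT (blue) and Xbp1dIEC (orange); bars are 95% counting intervals, the solid line is no difference and dotted lines are 1.5-fold. All 18 points lie below 0, Lrg1 near -0.8 in both libraries and Gata6 between -0.19 and -0.17 with intervals that include 0.

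Cycling cells were deeper, with medians of 13133 and 11947 UMIs against 8986.5 and 7706.5 in resting cells. Per cell, without scaling to the total, none of the 9 differed by 1.5-fold in WT and 1 did in Xbp1dIEC (Rarb, on 2 UMIs). Gata6 was then at 1.02 UMIs per cycling cell against 0.812 per resting cell in WT (log2 ratio 0.33) and 0.887 against 0.702 in Xbp1dIEC (0.34). Prg4 was at 21.1 against 20.4 UMIs in WT. Lrg1 remained lower per cell, at 3.08 against 3.77 UMIs in WT and 2.66 against 3.18 in Xbp1dIEC. Per cell, 5 of the 9 genes were higher in cycling than in resting cells in WT and 4 of the 9 in Xbp1dIEC, so the lower level of all 9 holds as a share of the RNA counted. A gene of unchanged CPM would be higher per cell in the deeper cycling cells. The share of all genes was not computed for these counts per cell, so they cannot be read against it. In cluster 10, led by cell cycle genes, Gata6 was at 64.2 and 62.0 CPM, the lowest of the 6 large macrophage clusters. Of its 426 WT and 190 Xbp1dIEC cells, 56.6% and 62.6% met the cycling rule, and 159 and 63 cells were in the Folr2/Retnla gate. Retnla was at 1295 and 1833 CPM in this cluster. The part of this mixture in its Gata6 level was not tested.

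Between genotypes the 9 genes differed little in large macrophages. None differed by 1.5-fold, where 3.26% of 11947 genes did, and none in resting cells alone, where 2.58% of 11688 genes did. Log2 ratios of Xbp1dIEC over WT ran from -0.22 for Rarb to 0.14 for Prg4, with a median of 0.03 against -0.06 over all genes tested. Gata6 was at 0.08 (-0.02 to 0.18), which places any difference from counting alone under 1.5-fold. The interval of Prg4 lay above 0 (0.12 to 0.15), and those of Icam2 (-0.11, -0.15 to -0.07) and Wnt2 (-0.11, -0.18 to -0.04) lay below it. Centring on genes over 50 CPM, whose median was -0.10, moves all of these up by that amount. In cycling cells Gata6 was at 78.1 and 82.6 CPM, a log2 ratio of 0.08 (-0.44 to 0.58).

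In Folr2/Retnla macrophages, 1 of the 9 genes differed by 1.5-fold between genotypes, where 6.52% of 11189 genes did, and the median of the 9 was -0.31 against -0.06 over all genes tested. Garnl3, Wnt2, Aspa, Icam2 and Gata6 were lower in Xbp1dIEC than in WT, with intervals below 0. Garnl3 was at 172 and 98.9 CPM (-0.79, -0.92 to -0.66), Wnt2 at 80.3 and 53.6 CPM (-0.58), Aspa at 20.3 and 13.5 CPM (-0.55), Icam2 at 583 and 437 CPM (-0.42) and Gata6 at 61.4 and 49.3 CPM (-0.31, -0.51 to -0.12). Prg4, Lrg1, Rarb and Rxra had intervals that included 0. The makeup of the gate moved with them: the cells in Folr2/Retnla clusters were 32.5% in WT and 52.1% in Xbp1dIEC, and Timd4 was at 123 and 79.6 CPM. Within cluster 3 Gata6 was at 38.0 (31.4 to 45.6) and 33.3 CPM (27.6 to 39.8), with overlapping intervals, and Garnl3 at 42.3 (35.3 to 50.3) and 22.9 CPM (18.2 to 28.3), whose intervals do not overlap. The part of gate makeup in these differences was not tested, and genotype and pool cannot be told apart.

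**Figure D5:**
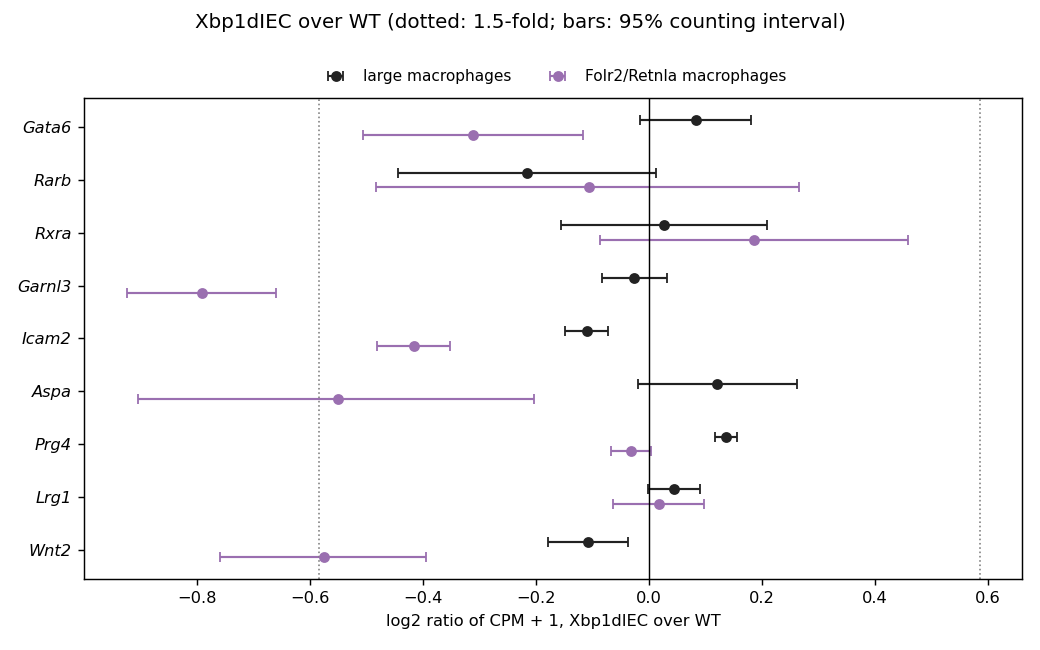
Log2 ratio of CPM with 1 CPM added, Xbp1dIEC over WT, for each gene in large macrophages (black) and Folr2/Retnla macrophages (purple); bars are 95% counting intervals and dotted lines are 1.5-fold. In large macrophages all 9 points lie between -0.22 and 0.14, and in Folr2/Retnla macrophages Garnl3 lies at -0.79, past the 1.5-fold line.

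Retinoid pathway genes beyond the 9 were compared between genotypes in large macrophages. Of 28 listed genes besides the 9, 17 had 10 or more UMIs in large macrophages of both libraries. None of the 17 passed 1.5-fold on the log2 scale with 1 CPM added, where 3.26% of 11947 genes did, so this count is near the share of all genes. The median of the 17 was 0.03, against -0.06 over all genes tested. On plain CPM, Tgm2 and Rdh5, at low levels, would pass. Dhrs3, a retinal reductase induced by retinoic acid, was at 271 and 276 CPM, the corepressor Ncor1 at 94.4 and 102 CPM, the receptor Rarg at 53.6 and 52.1 CPM and the coactivator Ncoa3 at 48.7 and 52.5 CPM. Rarg was at 50.04 and 50.6 CPM in Folr2/Retnla macrophages, and was lower in cycling cells (log2 ratio -1.44 in WT and -0.97 in Xbp1dIEC). The lowest genotype ratios were those of Tgm2, a transglutaminase (-0.53, -0.87 to -0.19, 7.03 and 4.56 CPM), and Rdh11, a retinol dehydrogenase (-0.40), and the highest those of the coactivators Ncoa1 (0.19) and Ncoa2 (0.19). Named after their values were seen, Cyp26a1, which degrades retinoic acid, was at 19.9 and 16.1 CPM in large and 8.47 and 3.61 CPM in Folr2/Retnla macrophages, and Aldh1a2, which makes it, at 7.83 and 8.78 CPM in large and 14.8 and 17.9 CPM in Folr2/Retnla macrophages. No UMI was found in large macrophages of either library for 8 genes: Crabp1, Crabp2, Rbp4, Stra6, Aldh1a1, Cyp26c1, Lrat and Bco1.

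Other genes known from large macrophages included some past the fold. Of 20 listed, 19 were measured, 1 was higher by 1.5-fold and 1 lower, where 3.26% of all genes tested passed in either direction, with a median of 0.06 against -0.06. Tgfb2, a growth factor, was at 165 and 273 CPM (0.72) and Marco, a scavenger receptor, at 204 and 108 CPM (-0.91). The next were Thbs1, thrombospondin (0.38), and Vsig4, a complement receptor (-0.42). The listed genes with the highest levels, fibronectin (Fn1), Saa3, Alox15 and Itga6, had log2 ratios of 0.11, -0.37, 0.06 and 0.15. Of 18 macrophage transcription factors, 17 were measured and 1 passed, against the same 3.26%, with a median of 0.06. It was Tfec, at 7.83 and 4.28 CPM (-0.74). Klf2, Cebpb and Spi1, among the highest, had 0.06, 0.26 and -0.16, and Irf4 and Irf5 had 0.50 and -0.24.

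Over 12 points, the resting large, cycling large, Folr2/Retnla, Cd209a, B and T cells of each library, the genes whose log2 level followed Gata6 most closely were Csf3r (Pearson r = 0.998), Tnfsf13b, Gm20619, Snx24, Syngr1, Gm13056, Cald1, Adgb, Htra3 and Cxcl12 (0.990). The ranking covered 4365 genes at 20 CPM or more in large macrophages of a library. The points share libraries and depth, and 4 of them are B and T cells where most macrophage genes are low. Csf3r, a growth factor receptor, was at 53.4 and 72.3 CPM in large macrophages. Of the other 8 genes, Prg4 ranked 57, Wnt2 64, Lrg1 93, Garnl3 104, Aspa 220, Icam2 355 and Rxra 789 (0.79). Rarb, under the level of the filter, had r = 0.51 and would rank 1699.

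Several members overlap other genes in GENCODE, and the strand setting of the counting is not given in the sources used here. Gata6 overlaps 1010001N08Rik on the other strand, counted at 2.61 and 5.02 CPM in large macrophages. Rarb overlaps Top2b, at 45.3 and 44.8 CPM, and Prg4 overlaps Tpr, at 186 and 172 CPM, each on the opposite strand. Reads of these pairs could be shared if strand was not used, and the low level of Rarb makes it the most exposed.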

How the data were processed

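Peritoneal cavity cells were profiled with 1 library per genotype. The deposited values are raw counts, UMIs per gene and barcode, made on mm10 with Cell Ranger 2.2.0 and Seurat 2.3.0 named in the submitters' processing notes; annotation and barcode filter were not given in the sources used here. Barcodes needed 500 UMIs, 200 genes and less than 10% mitochondrial UMIs, which left out 6 in WT and 20 in Xbp1dIEC. Scrublet in scanpy 1.11.5 (expected rate 5%) removed 142 (2.29%) and 114 (1.83%) doublets per library. Cells in gates of different lineages were left out (403 and 284), cells with both B and T genes (323 and 165) stayed as lymphocytes, and 242 and 440 met no gate. UMIs were summed per class. CPM carry exact Poisson, shares exact Clopper-Pearson (cells thinned to 2000 UMIs; lowest total 2485) and log2 ratios, with 1 CPM added, exact conditional binomial intervals; this scale understates low genes. Genes with 10 or more UMIs over both groups count as tested. Leiden clusters (igraph 0.11.9) used 2000 variable genes, 30 components, 15 neighbours and resolution 1. The calculation was tested on simulated data. Members and lists were chosen with earlier results of these data known. All 9 members are named, and per list the 4 highest genes in WT and the 2 highest and 2 lowest genotype ratios among genes with 50 or more UMIs; 1 gene that this rule names is not reported here. Alternatives changed cell filters, doublets, gates, the cycling rule, scaling, the CPM added, cell weights, units and classes.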

Additional observations from a re-analysis of the deposited data

How the results depend on the processing

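No paired analysis was possible because each genotype has 1 library and nothing was tested. The counts of members past the fold in large and resting large macrophages between genotypes stayed at 0 under every alternative run for them, where 171 recomputed log2 ratios lay between -0.29 and 0.24, and no called ratio of any comparison reversed. Of 1026 recomputed member ratios, 844 stayed within the counting interval of the reported value. The counts for cycling over resting cells, 4 in WT and 2 in Xbp1dIEC as reported, depended on the setting: in WT they were 2 with gates on thinned cells, 2 with 10 CPM added and 0 in UMIs per cell, and in Xbp1dIEC 4 with gates on thinned cells, 8 with Leiden classes, 5 with cells weighted equally, 7 with cycling called from 1000 UMIs and 1 in UMIs per cell. In CPM, 88 of 90 recomputed WT ratios and 89 of 90 Xbp1dIEC ratios were below 0; the exceptions were Rarb in WT (0.08 with a macrophage gate of 5 UMIs and 0.17 with cycling called from 1000 UMIs) and Gata6 in Xbp1dIEC (0.01 in the latter). Against Folr2/Retnla macrophages, the WT count of 3 became 6 with Leiden classes and 5 with a gate of 10 Folr2 and Retnla UMIs, the last chosen after seeing the data. Gata6 and Prg4 joined under both and Icam2 under the first, and at that gate Gata6 had log2 ratios of 0.74 in WT and 1.19 in Xbp1dIEC. Rarb had 0.27 (-0.08 to 0.62) and 0.35 (-0.07 to 0.79) at the same gate. Rxra had -0.05 (-0.31 to 0.22) and -0.21 (-0.49 to 0.08). Without cycling cells, also chosen after seeing the data, the counts were 2 and 4. The share of all genes past the fold was not computed under the alternatives, so the counts of members there cannot be read against it. Class sizes changed as well, with 119 cycling Xbp1dIEC cells under Leiden classes against 53 as reported. The Leiden classes held no Cd209a class. Depth limits Cd209a cells (level of 3 UMIs 11.8 CPM) and cycling Xbp1dIEC cells (53 cells, 5.28 CPM) most. The causes were not tested.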

Other observations

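Cluster 13, with 81 WT and 96 Xbp1dIEC cells, took most of its gated cells from lymphocytes but carried the large macrophage genes, with Gata6 at 81.6 CPM in WT and 72.6 in Xbp1dIEC and Wnt2 at 180.4 CPM in WT and 110.1 in Xbp1dIEC. Of its cells, 62 and 70 met gates of different lineages and were left out, and it entered no comparison as a class of its own. Large macrophages between the cycling and resting rules (198 WT and 141 Xbp1dIEC cells) had Gata6 at 76.0 CPM (64.4 to 89.2) and 89.6 CPM (72.7 to 109), and Lrg1 at 393 and 369.5 CPM.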
